A study of Caenorhabditis elegans with 2 samples.

Results

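The unfolded protein response of the endoplasmic reticulum (ER) was followed through 10 of its core genes in the nematode Caenorhabditis elegans. They comprise the stress sensors ire-1, pek-1 and atf-6, the transcription factor xbp-1, the chaperones hsp-3, hsp-4, crt-1 and cnx-1, and the disulfide isomerases pdi-1 and pdi-2. A probe set was taken for a gene when the platform annotation gives that symbol and no other. All 10 genes were found, read by 16 probe sets, among 17118 genes named in this way. The exposed group is 1 array of synchronised wild-type N2 worms given anatase, a crystal form of titanium dioxide, as nanoparticles at 500 µg/ml in liquid S-medium in the dark. The control group is 1 array of N2 worms without anatase. Neither worm age, exposure time nor the number of worms behind an array is given in the sources used here, and both arrays are called replicate 3 in the labels.

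Proteins that are secreted or sit in membranes are folded in the ER. When unfolded proteins build up there, the membrane sensors IRE-1, PEK-1 and ATF-6 become active. IRE-1 splices the xbp-1 transcript so that it encodes the active factor, which raises chaperone genes such as hsp-4, PEK-1 lowers translation by phosphorylating the initiation factor eIF2α, and ATF-6 is itself a transcription factor held at the ER membrane. In worms hsp-4 is the commonly used reporter gene of this response, while its close relative hsp-3 is better known as a steadily expressed chaperone.

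With 1 array in each group there is no replicate error, and no difference below was tested. In bulk RNA from whole worms, fewer cells of a type and less RNA per cell cannot be told apart. Differences are on the scale log2(intensity + 16), exposed minus control, so a positive value means a higher signal in exposed worms and 1 unit is 2-fold. Genes whose higher value of both arrays fell among the dimmest 25% of probe sets there were left out, and 13606 genes passed, all 10 ER stress genes among them. The compared genes were split by mean signal into 4 brightness classes of equal size, since dim genes vary more. Of the 10 genes, 8 lay in the brightest class, class 4, with pdi-2 in class 3 and atf-6 in class 2. The only spread available here comes from genes read by exactly 2 probe sets, from the gap between their 2 exposed-minus-control differences. In the brightest class (651 such genes) the difference of a single probe set had an SD of 0.18 log2 units. This SD, taken in the brightness class of the gene, is called the technical SD below. It does not hold variation between worm cultures or hybridisations that moves both probe sets of a gene alike.

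hsp-4 had the largest difference of the 10 genes, with a signal 43.8% higher in exposed worms, while its relative hsp-3 differed by 2.57%. Among the sensors, atf-6 and pek-1 were higher and ire-1 was lower in exposed worms. The chaperones crt-1 and cnx-1 and both disulfide isomerases were slightly lower. None of the 10 genes reached 2-fold in either direction, against 4.73% of all genes compared (1.66% higher and 3.07% lower) and 0.323% of those in the brightest class. None reached 1.5-fold, against 14.3% of all genes compared and 2.76% of those in the brightest class. In exposed worms 5 of the 10 were higher and 5 lower. The share higher was 46.8% of all genes compared and 53.0% of those in the brightest class. The median difference of the 10 was −0.0067, against −0.02 for all genes compared and 0.01 for those in the brightest class. With each array centred on its median, that of the 10 was 0.05. The genes spread from −0.34 for ire-1 to 0.52 for hsp-4, with an SD among them of 0.26 log2 units.

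**Figure D1:**
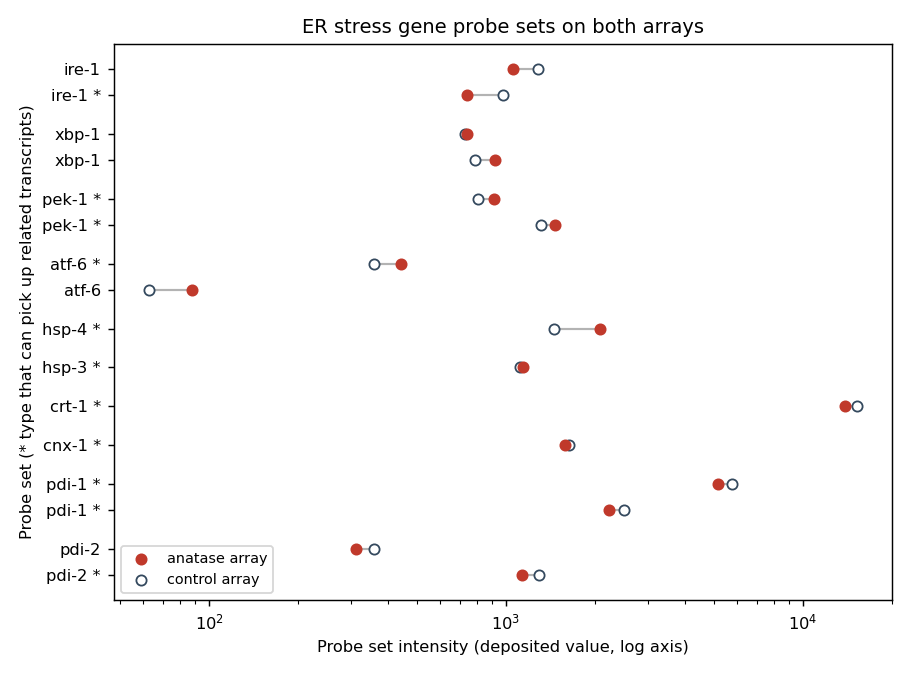
Intensity of each of the 16 probe sets on the anatase array (filled red) and the control array (open), on a log axis, in the order sensors and xbp-1, chaperones, disulfide isomerases. The widest rightward gap is that of hsp-4 (2080 on the anatase array, 1446 on the control array), and both ire-1 probe sets lie to the left of their control value; positions of different probe sets on the axis cannot be compared with each other.

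The sensors did not share a direction. ire-1 (C41C4.4), the kinase and nuclease that splices xbp-1, was read by 2 probe sets, with intensities of 1052 and 738.1 in exposed worms against 1287 and 979.4 in control worms. Both probe sets were lower in exposed worms, by −0.29 and −0.40, and their mean was −0.34. That is 2.70 times the technical SD of a mean of 2 probe sets (0.13), and 183 of the 3402 genes in the brightest class lay lower. In that class 10.6% of genes differed by more in either direction. Only 1 of its probe sets is of a type that can pick up related transcripts, called shared below. The other, read alone, gave −0.29.

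pek-1 (F46C3.1), the kinase that slows translation, had intensities of 909.1 and 1468 in exposed worms against 807.5 and 1308 in control worms. Both probe sets were higher in exposed worms, by 0.17 and 0.16, and both are shared. The mean of 0.17 was 1.31 times its technical SD, and 37.1% of genes in the brightest class differed by more in either direction.

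atf-6 (F45E6.2) had intensities of 442.8 and 87.4 in exposed worms against 359.5 and 62.8 in control worms. Both probe sets were again higher in exposed worms, by 0.29 and 0.39, giving a mean of 0.34. This was the second largest positive value of the 10 genes, in a dimmer class where differences spread more. In that class 34.3% of genes differed by more in either direction, and the mean was 1.22 times a technical SD of 0.28. The probe set at 87.4 and 62.8 lay below the median intensity of both arrays (117.8 exposed, 123.1 control).

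xbp-1 (R74.3), which encodes the factor downstream of IRE-1, was the only one of the 10 genes read by no shared probe set. Its intensities were 737.1 and 916.7 in exposed worms against 725.7 and 786.6 in control worms. The 2 probe sets gave 0.02 and 0.22, so the first was nearly level and the second higher in exposed worms. Their mean was 0.12, or 0.94 times its technical SD, inside the middle 50% of genes in the brightest class (−0.11 to 0.14). Activity of the pathway depends on the splicing of this transcript. Which part of it each probe set reads was not analysed here, so these values give no spliced share.

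The pair of BiP chaperones, HSP70 proteins of the ER lumen that bind unfolded chains, differed from each other. hsp-4 (F43E2.8) stood at an intensity of 2080 in exposed worms and 1446 in control worms, a difference of 0.52. It was the only one of the 10 genes outside the middle 95% of genes in its class (−0.51 to 0.46). In that class 55 of 3402 genes were higher than it, and 4.06% differed by more in either direction. It lay 2.89 technical SDs (0.18) from 0. hsp-3 (C15H9.6) stood at 1141 in exposed worms and 1112 in control worms, a difference of 0.04, near the middle of its class. The difference of hsp-4 thus exceeded that of hsp-3 by 0.48 log2 units. Between 2 probe sets of the same gene in this class, the SD of such a gap was 0.25. Each gene was read by 1 shared probe set. How far each of these picks up the other transcript, or that of another HSP70 gene, was not tested. The cytosolic genes hsp-1 and hsp-70, picked here as HSP70 genes, were also higher in exposed worms. hsp-1 stood at 6660 exposed and 4365 control (0.61), and hsp-70 at 21044 exposed and 13575 control (0.63).

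The lectin chaperones hold sugar-bearing proteins in the ER while they fold. crt-1 (Y38A10A.5), calreticulin, which also binds calcium in the ER, stood at 13818 in exposed worms and 15214 in control worms, a difference of −0.14. Its probe set lay at percentile 98.9 of all probe sets on the exposed array and 99.0 on the control array. cnx-1 (ZK632.6), the membrane-bound calnexin, stood at 1577 in exposed worms and 1632.5 in control worms, a difference of −0.05, which was 0.0065 with each array centred on its median. Both differences were smaller than 1 technical SD (−0.77 and −0.28 times it).

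The disulfide isomerases form and rearrange disulfide bonds, and in worms pdi-2 also encodes a subunit of collagen prolyl hydroxylase. pdi-1 (C14B1.1) had intensities of 5189 and 2221 in exposed worms against 5788.5 and 2491 in control worms. Both of its probe sets, which are shared, were lower in exposed worms by the same −0.16. pdi-2 (C07A12.4) had intensities of 312.2 and 1134 in exposed worms against 359.0 and 1292 in control worms. Its probe sets, 1 of them shared, each gave −0.19. Both genes thus had a small difference, read alike by both probe sets. It was −1.26 times the technical SD for pdi-1 (0.13) and −1.11 times that of class 3 for pdi-2 (0.17). Of the genes in their classes, 38.5% differed by more than pdi-1 and 46.0% by more than pdi-2.

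**Figure D2:**
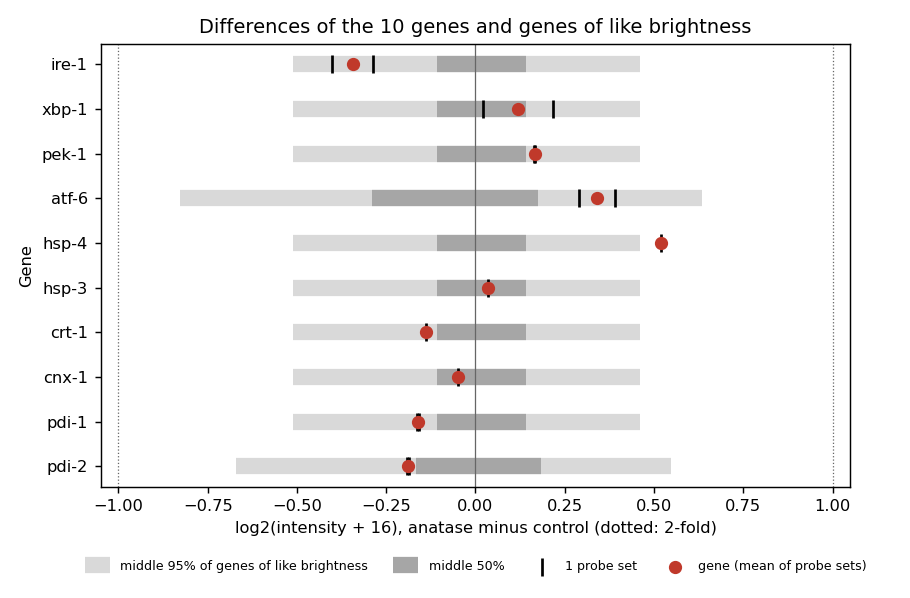
Difference of each gene on the log2(intensity + 16) scale, anatase minus control (red points: gene means; black ticks: single probe sets), over the middle 95% (light bar) and middle 50% (dark bar) of genes in the same brightness class; dotted lines mark 2-fold. hsp-4 at 0.52 lies past the light bar, and the other 9 genes lie within it.

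All 6 genes with 2 probe sets had both reading in the same direction. Among all genes compared that have exactly 2 probe sets this was so for 58.1%, and for 61.1% in the brightest class. The gap between the differences of the 2 probe sets of a gene was 0.0032 log2 units for pek-1, 0.0064 for pdi-2 and 0.0073 for pdi-1. It was 0.10 for atf-6, 0.11 for ire-1 and 0.19 for xbp-1, against a median gap of 0.15 in the brightest class and 0.33 in the class of atf-6. hsp-3, hsp-4, crt-1 and cnx-1 have 1 probe set each, so the value of hsp-4 could not be set against a second reading. Shared probe sets alone read 6 of the 10 genes, hsp-4 among them.

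Across 7 lists of ER and related genes, called ER lists, no common direction was seen. Besides folding and quality control, they cover translocation and glycosylation (31 genes), the COPII and COPI coats (19) and calcium genes (12). Without the 10 genes above, the lists gave 111 compared genes, each counted once. Of these, 55 were higher and 56 lower in exposed worms. None of the 111 reached 2-fold, beside 4.73% of all genes compared. Of the 111, 58 lay in the brightest class, where that share was 0.323%, and 6 in the dimmest. Their median was −0.02, beside −0.02 for all genes compared, 0.01 for those in the brightest class and −0.19 for those in the dimmest. Among the other chaperones and the lectin cycle, 6 of 14 genes were higher and 8 lower, with a median of −0.15. Leaving out shared probe sets moved this median to −0.05. The DnaJ-family gene dnj-28 was highest at 0.47 (145.3 exposed, 100.1 control). The DnaJ and thioredoxin domain gene dnj-27 was lowest at −0.54, in the dimmest class.

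Among the other disulfide enzymes, 4 of 9 were higher and 5 lower, with a median of −0.08. ero-1, the oxidase that recharges disulfide isomerases, was highest at 0.56, with gene-level intensities of 239.9 in exposed worms and 157.9 in control worms. It was read by 2 probe sets, neither of them shared. The thioredoxin-like gene erp-44.3 was lowest at −0.69, at a dim 29.6 exposed and 57.8 control.

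ER-associated degradation sends misfolded proteins to the proteasome. Of 23 genes compared, 14 were higher and 9 lower in exposed worms, with a median of 0.02. The ubiquitin ligase gene sel-11 was highest at 0.21 (609.9 exposed, 525.2 control). ufd-1, a partner of the segregase CDC-48, was lowest at −0.60 (1896 exposed, 2889 control), read by 1 shared probe set.

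Translocation into the ER and N-glycosylation gave 16 higher and 15 lower of 31 genes. Their median was 0.0027 and turned negative under the loess correction and quantile normalization. The glycosylation genes algn-11 and algn-9, named after yeast mannosyltransferases of the sugar precursor, marked both ends. algn-11 stood at 1265 exposed and 931.6 control (0.44), and algn-9 at 438.6 exposed and 861.9 control (−0.95). Each has 1 probe set.

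The COPII and COPI coats, which carry cargo between ER and Golgi, had 9 of 19 genes higher and a median of −0.02, which turned positive in 5 of 9 alternatives. The COPI subunit genes copb-1 (0.33) and copb-2 (−0.53) were the highest and the lowest. Of the calcium genes, 5 of 12 were higher, with a median of −0.06 that turned positive in 4 of 9 alternatives. The ryanodine receptor gene unc-68 was highest at 0.43 and the plasma membrane channel gene orai-1 lowest at −0.46 (883.5 exposed, 1222 control).

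Among the other sensors and factors, 3 genes were compared, and all 3 are named. atf-4, which encodes the factor made when eIF2α is phosphorylated, was at −0.21. gcn-2, the gene of a separate eIF2α kinase, was at 0.19, and gcn-1, the gene of its partner, at −0.31. A list of integrated stress and amino acid genes, which holds the same 3, had 4 of 8 higher. Its median of 0.05 turned to −0.09 with the brightest probe set, and nsun-4 was highest at 0.33.

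The abu genes were first described as activated when this response is blocked, and several belong to a family with repetitive protein sequences. Of 9 compared, 1 was higher and 8 were lower in exposed worms, with a median of −0.36. Without the brightness filter, which left out abu-3 and abu-4, the median was −0.30 over 11 genes. All 9 lay outside the brightest class, and the median of all genes was −0.19 in the dimmest class and −0.07 in class 2. abu-2 was lowest at −1.90, with intensities of 1.30 exposed and 48.5 control. abu-10 was at −1.06 with gene-level intensities of 14.2 exposed and 47.1 control. These were the only compared genes on any list here past 2-fold. Both passed the brightness filter only through the control array, so their lower exposed values, and their share in the count and median above, are partly set by the filter. Both are also close to the floor of the exposed array, so their folds are not well fixed. abu-6, at 84.0 exposed and 82.2 control, was highest at 0.03.

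**Figure D3:**
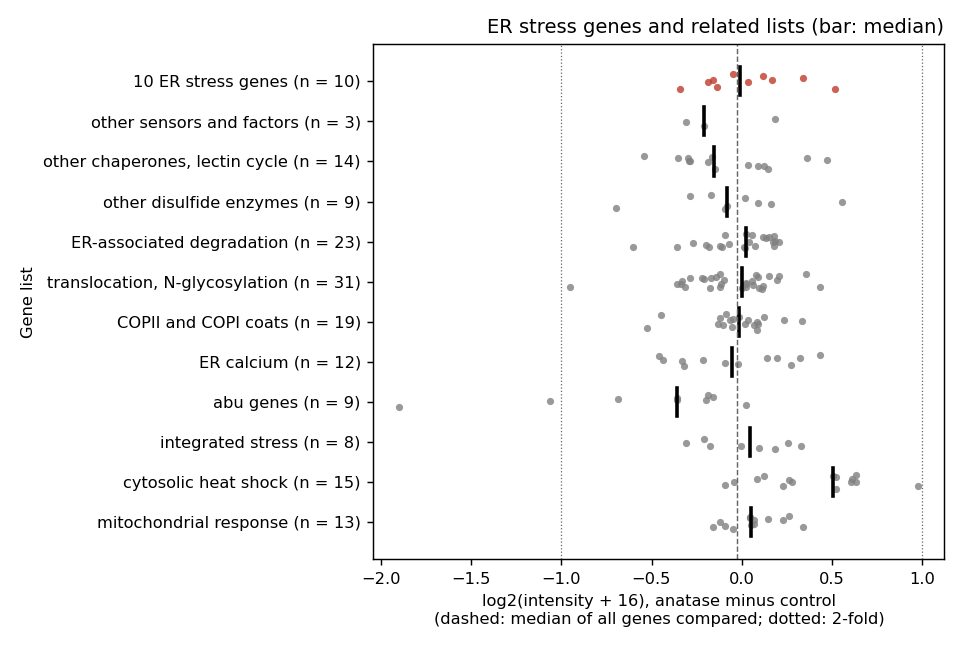
Difference of each compared gene on the log2(intensity + 16) scale, anatase minus control, for the 10 ER stress genes (red) and for related lists without them (grey), with the median of each as a black bar. Medians of the 7 ER lists run from −0.21 to 0.02 around that of all genes compared (dashed), the cytosolic heat shock list centres at 0.50, and the abu genes reach past 2-fold lower (dotted).

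Stress genes of other compartments give the nearest comparison. Of 15 cytosolic heat shock genes, 13 were higher in exposed worms and the median was 0.50, while the mitochondrial response had 9 of 13 higher and a median of 0.05. The share higher was 46.8% of all genes compared and 53.0% of those in the brightest class. That class held 10 of the 15 cytosolic genes and 5 of the 13 mitochondrial ones. The highest of the cytosolic genes was hsp-12.3, a small heat shock gene, at 0.98 (2427 exposed, 1221 control). The heat shock factor gene hsf-1 was the lowest at −0.09. The mitochondrial chaperone gene hsp-6 stood at 0.34, and haf-1, a mitochondrial peptide exporter gene, at −0.16. The difference of hsp-4 (0.52) was thus close to the median of the cytosolic list, and those of the other ER chaperones lay below it. No test of these differences between lists was possible with 1 array a group.

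Markers of the worm's tissues were also read. Every listed marker of intestine, muscle, neuron, germline, sperm and hypodermis that has a probe set passed the brightness filter, the neuronal gene unc-31 barely so, at 25.3 exposed and 19.1 control. Intestinal markers were lower in 7 of 10 genes (median −0.17, summed intensity 52311 exposed and 57711 control) and hypodermal ones in 8 of 10 (median −0.11, 54727 and 57481). Of the 5 yolk genes compared, 4 were lower, with a median of −0.47. Sperm markers were higher in 12 of 13 genes (median 0.12, summed intensity 174395 exposed and 163815 control). Most of that sum comes from the msp genes, each read by 1 shared probe set. How far these pick up each other's transcripts was not tested, so the msp genes may not be separate readings. Neuronal markers were higher in 8 of 10 (median 0.08), muscle ones in 5 of 8 (median 0.03) and germline ones in 6 of 11 (median 0.01). Of all genes compared 46.8% were higher, and 53.0% of those in the brightest class. The part that tissue makeup has in the differences of the ER genes was not tested.

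Across the 9 other processing settings, 9 of the 10 genes kept their sign wherever they could be measured. hsp-4 ranged from 0.51 to 0.58, ire-1 from −0.36 to −0.29, atf-6 from 0.26 to 0.40 and xbp-1 from 0.10 to 0.22. Only cnx-1 turned, as given above.

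**Figure D4:**
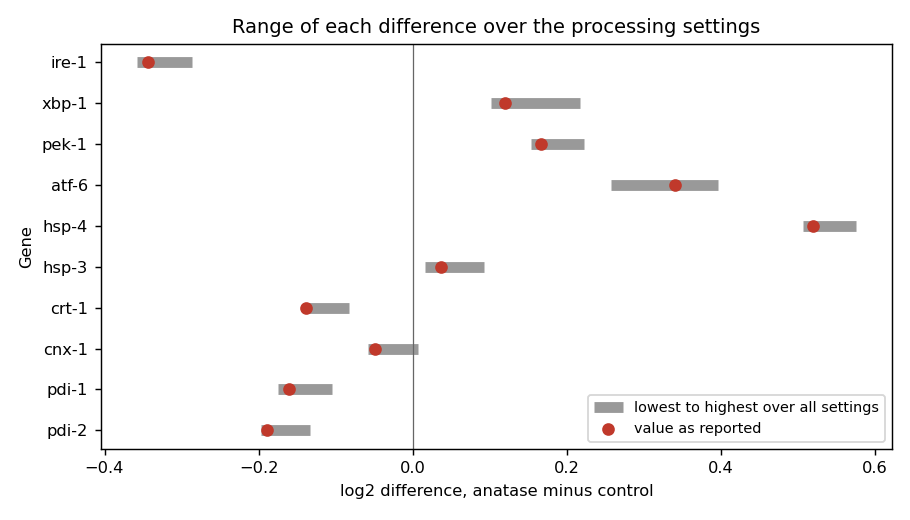
Log2 difference, anatase minus control, of each gene as reported (red) and its lowest and highest value over the processing settings (grey bar). The bars are short against the spread between genes, and only that of cnx-1 (−0.06 to 0.0065) crosses 0.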

How the data were processed

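Trizol was used to extract total RNA, from which biotinylated cRNA for Affymetrix arrays was made, per the labels' protocols. The authors deposited linear intensities of 22548 probe sets for each array. Transcriptome Analysis Console was used, per the submitters' processing notes. How probe signals were summarised and scaled, and any detection calls, are not stated in the labels used here. Trimmed means (2% at each end) were 494.6 on the exposed and 495.1 on the control array, so both look scaled to 1 level.

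The platform annotation names 1 gene for 20766 probe sets, several for 887 and none for 895. Only the first were used, taking log2(intensity + 16) and then the mean over the probe sets that name a gene. The symbols of all 10 genes matched RefSeq (WBcel235) by gene number, and sequence names come from there. The array names no build, so no coordinates are printed. Probe sets ending in _s_at, _x_at or similar were called shared.

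The members and lists were chosen with earlier results of these data known. The text names all 10 genes and, of each list, the highest and lowest gene and any past 2-fold, with lists lacking the 10 genes. A selection of genes outside this rule is said to be one. Alternatives were median centring, loess (span 30%), quantile normalization, pseudocounts of 1 and 64, the brightest probe set, no shared probe sets, no brightness filter or 1 at the median, and folds of 1.5 and 3. Promoter and protein sequences were not analysed here. The scaling, the gene means and the SD of a probe set were checked on simulated data, with equal noise for all genes. Planted changes there were larger than those of the 10 genes, so differences of their size were not checked. Python 3.11.15, numpy 2.4.6, pandas 2.3.3, statsmodels 0.14.6 and matplotlib 3.10.9 were used.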

Additional observations from a re-analysis of the deposited data

How the results depend on the processing

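No paired analysis was possible because there is only 1 exposed and 1 control array. The number of arrays limits every value, and without detection calls it is unknown which dim probe sets lay above background. A shift was called small when it was under the SD of 1 probe set over all genes with 2 (0.32). For a median this SD was divided by the square root of the number of genes. A median whose sign turned was counted as moved, whatever the size of its shift. Median centring of both arrays moved the median of the 10 ER genes to 0.049 and that of all genes compared to 0.03. Without shared probe sets 4 of the 10 genes could be measured, and 2 of them were higher. No gene of the 10 reached 1.5-fold, or 2-fold in any setting run. Over all genes, 226 were higher and 418 lower by at least 2-fold as deposited. A pseudocount of 1 gave 423 higher and 803 lower, and 1 of 64 gave 12 higher and 24 lower. Keeping only genes above the median brightness left 25 higher and 54 lower. A threshold of 1.5-fold was passed by 638 upward and 1303 downward, and 1 of 3-fold by 23 upward and 76 downward. The split came to 289 higher and 304 lower after loess, 291 and 310 after quantile normalization, and 253 and 361 after median centring. The abu median ranged from −1.06 (3 genes, without shared probe sets) to −0.17 with the brightest probe set.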

Other observations

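The following genes were picked after their values were seen, out of the translocation and glycosylation list. The 3 Sec61 genes, whose products form the channel through which new proteins enter the ER, were lower in exposed worms: sec-61.A was at −0.33, sec-61.B at −0.22 and sec-61.G at −0.12. Of the genes for partners of the channel, sec-62 was at −0.11, while the DnaJ-family gene dnj-29 was at 0.06 (537.4 exposed, 513.4 control). The 4 genes of the translocon-associated TRAP complex were lower too, with trap-1 at −0.31, trap-2 at −0.29, trap-3 at −0.14 and trap-4 at −0.33. trap-4 stood at an intensity of 2137 in exposed worms and 2698 in control worms. The oligosaccharyltransferase genes, whose products attach the sugar next to the same channel, lay on both sides of 0: ribo-1 was at 0.36, dad-1 and ostd-1 at 0.02 each, stt-3 at 0.0027 and ostb-1 at −0.10. As these genes were singled out by their values, their agreement supports nothing by itself, and replicate arrays would be needed to test it.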
